A study of Mus musculus with 6 samples.

Results

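Rnase1, Rnase4 and Ang encode secreted ribonucleases of the RNase A family, and Rnh1 encodes the inhibitor that binds them inside cells. They were measured in heart RNA of VAChT KD and wild-type (WT) mice. All probe sets whose platform annotation gives 1 of the 4 genes as a whole symbol were taken, also where it gives several. They are 4 of 21335 genes in that annotation, and their probe sets were 3 of 35556: 1 for Rnase1, 1 for Rnh1, and 1 that lists both Rnase4 and Ang, so that the signals of these 2 genes cannot be told apart here. VAChT KD mice carry a knockdown of Slc18a3, the gene of the vesicular acetylcholine transporter (VAChT), throughout the body, and the series title marks them as homozygous. The 3 VAChT KD arrays and the 3 WT arrays were Mouse Gene 1.0 ST arrays of RNA from male mice aged 3 months that had no treatment. RNA of 2 samples was pooled for every array. The labels name the heart and C57BL/6, where the paper's methods name ventricles and a mixed C57BL/6 background of only 3 backcross generations.

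Enzymes of the RNase A family are small secreted proteins, held together by disulfide bonds, that cut single-stranded RNA. Rnase1 is the pancreatic type, which degrades RNA outside cells and is also released by endothelial cells in humans. Rnase4 cuts RNA after uridine. Ang (angiogenin) is a weak ribonuclease that promotes vessel growth and cuts transfer RNA in its anticodon loop in stressed cells. Rnh1, the ribonuclease inhibitor, is a leucine-rich repeat protein of the cytosol that binds such enzymes very tightly, Ang included. In the mouse, Rnase4 and Ang are transcribed from a shared promoter, with common first exons spliced to a separate coding exon for each.

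The start sites are shown because Rnase4 and Ang, which share a probe set, also share a start, and Rnase1 has one of its own. In the RefSeq promoter table (GRCm38.p6), all 4 genes matched and had 6 distinct windows between them, and Rnase4 and Ang had 1 window in common with the same bases. Rnase4 had a second start of its own, and Rnh1 had 3. The 250 bases before the start are given 5′ to 3′ on the strand of the gene for the shared Rnase4 and Ang start (chr14:51090827-51091076, plus strand) and for Rnase1 (chr14:51146768-51147017, minus strand), with motifs in capitals.
Rnase4 and Ang: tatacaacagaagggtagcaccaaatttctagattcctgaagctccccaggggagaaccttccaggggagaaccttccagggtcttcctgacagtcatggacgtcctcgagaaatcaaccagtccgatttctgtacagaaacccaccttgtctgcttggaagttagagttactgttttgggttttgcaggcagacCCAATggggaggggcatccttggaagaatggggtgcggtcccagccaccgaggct
Rnase1: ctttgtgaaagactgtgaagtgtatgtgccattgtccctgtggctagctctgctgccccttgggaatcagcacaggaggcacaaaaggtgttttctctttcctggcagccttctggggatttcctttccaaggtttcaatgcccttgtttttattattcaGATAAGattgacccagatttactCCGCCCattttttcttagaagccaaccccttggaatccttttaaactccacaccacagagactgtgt
The motifs searched on both strands were the TATA box (spelled TATAAA), the GC box (spelled GGGCGG), the CCAAT box, the E-box (spelled CACGTG) and the GATA motif (spelled GATAAG). They were chosen with the sequences in view, and none of those in capitals overlaps another. The Rnase4 and Ang window held 1 CCAAT, 55 to 51 bases before the start, a motif that 33.8% of 32817 such windows hold. The Rnase1 window held no CCAAT. It held 1 GATAAG, 90 to 85 bases before the start (6.55% of windows), and 1 GGGCGG on the opposite strand, 67 to 62 bases before it (32.7%). CpG pairs numbered 5 in the shared window and 1 in that of Rnase1, against a median of 6.

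The arrays were read as the deposited log2 signals, and their medians ran from 6.84 to 6.89 in VAChT KD and from 6.91 to 6.98 in WT. Across all probe sets, any 2 arrays correlated at 0.982 to 0.994. Background was set by 1035 olfactory receptor probe sets, whose mean signals had a median of 4.71 and a 95th percentile of 6.503. All 10 cardiomyocyte markers lay above that percentile, and their mean was 13.17 on VAChT KD 1, against 13.86 on VAChT KD 2 and on VAChT KD 3 and 13.77 to 13.81 in WT. Their median log2 difference, VAChT KD minus WT, was -0.21 as deposited. It was 0.01 after quantile normalizing the arrays once more and -0.14 after centring them on their medians, so it depends on the scaling. Slc18a3, the targeted gene, read 7.24, 6.77 and 7.58 on VAChT KD 1, 2 and 3, against 7.31, 7.42 and 7.11 on WT 1, 2 and 3, and did not separate the groups. Its log2 difference, VAChT KD minus WT, was -0.08 (standard error 0.20, limma adjusted p = 0.873). It was 0.20 (standard error 0.16) without both arrays numbered 2, so that its sign rests on them. Ogdhl, an oxoglutarate dehydrogenase-like gene on chromosome 14, read 7.06, 10.17 and 7.09 on VAChT KD 1, 2 and 3, against 9.60, 7.21 and 10.33 on WT 1, 2 and 3. There VAChT KD 2 lay with WT 1 and WT 3, and WT 2 lay with VAChT KD 1 and VAChT KD 3. The arrays numbered 2 therefore went against their labels at this gene, and at Rnase1, Rnase4/Ang and Pnp, given below, they also lay on the side of the other group. The log2 difference of Ogdhl was -0.94 (standard error 1.03), and -2.89 (standard error 0.24) without both arrays. The labels were kept as deposited. From these arrays the paper lists Rnase1 and Pnp as raised and Rnase4 and Ogdhl as lowered in VAChT KD. With the labels as deposited, limma's unadjusted p was 0.295 for Rnase1, 0.0964 for Pnp, 0.465 for Rnase4/Ang and 0.391 for Ogdhl. The calls of the paper for these genes are thus not reproduced with these labels. Whether these 2 arrays were exchanged in labelling was not tested, and what each VAChT KD minus WT value below means depends on it. The values of the members, and of some other genes and lists, are also given without both. Other named genes moved as well, and not all of their values are given.

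With the arrays grouped as labelled, no member differed beyond their spread, a result that depends on the labels of the arrays numbered 2. Rnase1 had a higher mean in VAChT KD than in WT by 0.24 on the log2 scale, the Rnase4/Ang probe set a lower mean by 0.15, and Rnh1 a higher mean by 0.06, and each group overlapped the other at all 3 probe sets. Rnase1 and Rnase4/Ang varied widely from array to array and in opposite directions, whereas Rnh1 varied little. The study picked Rnase1 as raised and Rnase4 as lowered on these same arrays, so the opposite directions are not independent of that choice.

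Rnase1 read 7.57, 6.83 and 7.36 on VAChT KD 1, 2 and 3, against 6.97, 7.30 and 6.77 on WT 1, 2 and 3. The highest arrays were VAChT KD 1, VAChT KD 3 and WT 2, in that order, followed by WT 1, VAChT KD 2 and WT 3. The widest step between arrays next to each other in that order was 0.33, between WT 2 and WT 1. Rnase1 averaged 7.25 ± 0.38 in VAChT KD and 7.02 ± 0.27 in WT (SD, n = 3 arrays each), which gave a log2 difference of 0.24 (standard error 0.21, 95% interval -0.26 to 0.73, limma adjusted p = 0.632). This is 1.18-fold. Its mean over the 6 arrays, 7.13, was above the olfactory receptors' 95th percentile, though not far.

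The shared probe set of Rnase4 and Ang read 8.36, 9.02 and 8.47 on VAChT KD 1, 2 and 3, against 8.86, 8.51 and 8.94 on WT 1, 2 and 3. VAChT KD 2 was the highest of the 6 arrays and VAChT KD 1 the lowest, so that the VAChT KD arrays enclosed all of those of WT. The signal averaged 8.62 ± 0.36 in VAChT KD and 8.77 ± 0.23 in WT (SD, n = 3 arrays each). The log2 difference was -0.15 (standard error 0.19, 95% interval -0.60 to 0.30, limma adjusted p = 0.748). The widest step, 0.35, lay between WT 1 and WT 2, with WT 3 and VAChT KD 2 on the high side and VAChT KD 1 and VAChT KD 3 on the low side. The next widest step was 0.11. The probes of this set were not examined here, and whether they separate Ang from its close paralogs was not tested.

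Rnh1, the inhibitor, read 9.36, 9.56 and 9.62 on VAChT KD 1, 2 and 3, against 9.48, 9.43 and 9.43 on WT 1, 2 and 3. The WT arrays lay inside the span of the VAChT KD arrays, and VAChT KD 1 was the lowest of all. Rnh1 averaged 9.51 ± 0.14 in VAChT KD and 9.45 ± 0.03 in WT (SD, n = 3 arrays each), a log2 difference of 0.06 (standard error 0.09, 95% interval -0.15 to 0.28, limma adjusted p = 0.766). Quantile normalizing the arrays once more gave 0.0013 for this difference, and centring them on their medians gave 0.13.

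**Figure D1:**
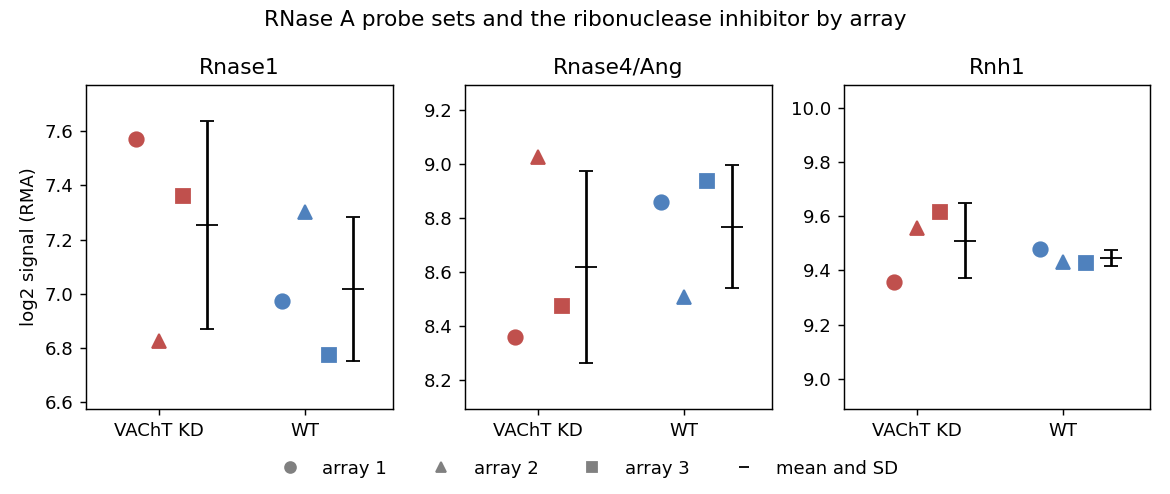
Log2 signal (vertical axis, RMA, the same span in each panel) of Rnase1, the shared Rnase4/Ang probe set and Rnh1 on the VAChT KD and WT arrays, with the array number as the symbol and the mean and SD of each group in black. The arrays numbered 2 (triangles) lie at 6.83 in VAChT KD and 7.30 in WT for Rnase1, and at 9.02 and 8.51 for Rnase4/Ang.

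By limma, 0 of the 3 member probe sets passed an adjusted p of 0.05, where 0.00281% of all probe sets did. Likewise 0 of the 3 passed an unadjusted p of 0.05, where 11.7% of all did, and 0 passed that p together with 1.3-fold, where 3.79% did. The groups did not overlap at 19.2% of all probe sets, and at none of the 3 members. An exact permutation test of 3 arrays against 3, two-sided, gave p = 0.4 for Rnase1, 0.7 for Rnase4/Ang and 0.4 for Rnh1, where the smallest p it can give is 0.1. The study picked Rnase1 and Rnase4 on these same arrays, so their values here are not independent of that choice. For Rnase4 the paper also reports lower RNA in VAChT KD by quantitative PCR, which is not part of these data. The records do not say that the pools came from separate litters, and p-values here cover only how far such pools lie apart. In whole tissue, fewer cells of a type and less RNA per cell cannot be told apart.

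Set against its own mean over the 6 arrays, Rnase1 deviated by 0.44, -0.31 and 0.23 on VAChT KD 1, 2 and 3, against -0.16, 0.17 and -0.36 on WT 1, 2 and 3. Rnase4/Ang deviated by -0.33, 0.33 and -0.22 on VAChT KD 1, 2 and 3, against 0.17, -0.19 and 0.24 on WT 1, 2 and 3. The 2 probe sets thus had opposite signs on 6 of 6 arrays, and their deviations were of like size on each. Genes picked as raised and as lowered on the same arrays tend to show this, so no support is drawn from it. Rnase1 minus Rnase4/Ang, taken on these deviations within each array, averaged 0.19 ± 0.74 in VAChT KD and -0.19 ± 0.49 in WT (SD, n = 3 arrays each), with the groups overlapping. A constant added to all values of an array moves both genes alike and leaves this quantity as it is. Quantile normalizing once more does not. It took the log2 difference of Rnase1 from 0.24 to 0.29 and that of Rnase4/Ang from -0.15 to -0.21. Rnh1 deviated by -0.12, 0.08 and 0.14 on VAChT KD 1, 2 and 3, against 0.0007, -0.05 and -0.05 on WT 1, 2 and 3, and followed neither enzyme.

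**Figure D2:**
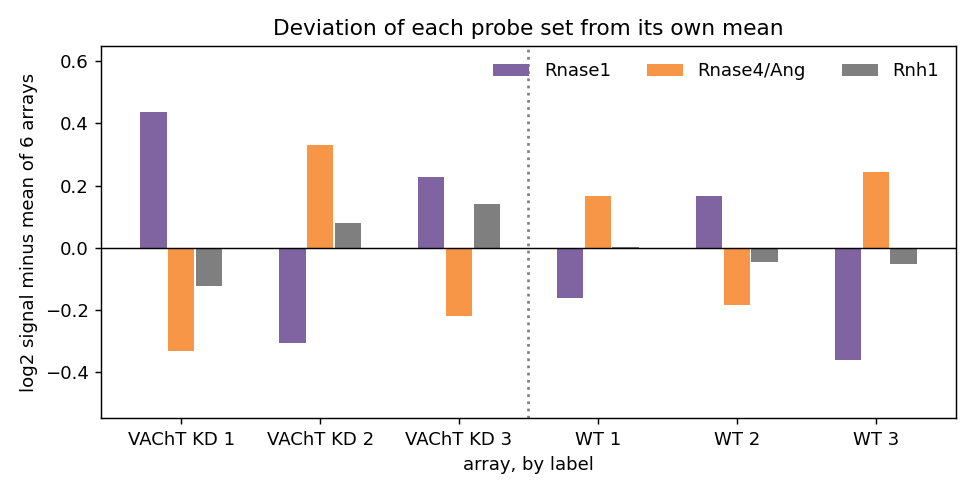
Deviation of each probe set from its own mean over the 6 arrays (vertical axis, log2) by array (horizontal axis, VAChT KD left of the dotted line and WT right of it). Rnase1 and Rnase4/Ang, picked by the study as raised and lowered on these arrays, point in opposite directions on 6 of 6 arrays. They run from 0.44 and -0.33 on VAChT KD 1 to -0.36 and 0.24 on WT 3, while Rnh1 stays within 0.14 of its mean.

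The range over the 6 arrays was 0.80 for Rnase1, at the 89.1 percentile of the ranges of all probe sets. It was 0.66 for Rnase4/Ang, at the 83.3 percentile, and 0.26 for Rnh1, at the 25.9 percentile. The median range of all probe sets was 0.37.

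Without both arrays numbered 2, chosen with the values of Ogdhl and of these genes known, Rnase1 read 7.57 and 7.36 on VAChT KD 1 and 3, against 6.97 and 6.77 on WT 1 and 3. The log2 difference was then 0.59 (standard error 0.14, limma adjusted p = 0.454), or 1.51-fold. Rnase4/Ang read 8.36 and 8.47 on VAChT KD 1 and 3, against 8.86 and 8.94 on WT 1 and 3, a log2 difference of -0.48 (standard error 0.12, limma adjusted p = 0.464). These groups did not overlap at either gene, as at 46.5% of all probe sets on the same 4 arrays. Both genes passed an unadjusted p of 0.05 and 1.3-fold there, as did 7.87% of all, and neither passed the adjusted p, which 0 probe sets did. Rnh1 differed by 0.03 (standard error 0.14). Since these arrays were left out with the result in view, no support is drawn from the values without them. Leaving out VAChT KD 2 alone gave 0.45 for Rnase1 and -0.35 for Rnase4/Ang, and leaving out WT 2 alone gave 0.38 and -0.28. Leaving out VAChT KD 1, the array with the low cardiomyocyte markers in the values as deposited, gave 0.08 and -0.02. Leaving out WT 3 gave 0.12 and -0.06, and leaving out VAChT KD 3 gave 0.18 and -0.08. Leaving out WT 1 gave 0.22 and -0.10. Both differences were thus smaller without any of these arrays, and smallest without VAChT KD 1. The part of the cardiomyocyte markers in this was not tested.

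Lists of endothelial, macrophage, pancreas and liver markers were read on the same arrays. The mean log2 signal of 10 endothelial markers, all above background, was 10.08 to 10.30 in VAChT KD and 10.10 to 10.36 in WT, with the lowest value on VAChT KD 1. That of 10 macrophage markers was 8.63 to 8.94 in VAChT KD and 8.61 to 8.81 in WT. Of 6 pancreas markers, 3 lay above background, and the mean of all 6 was 6.32 to 6.44 in VAChT KD and 6.49 to 6.69 in WT, so that the groups did not overlap. The median log2 difference of these 6 was -0.15, which was -0.07 after quantile normalizing once more and -0.08 after centring the arrays, where the olfactory receptors had a median of -0.11 as deposited. The digestive enzyme Cela3b had the smallest p among them (log2 difference -0.40, standard error 0.07, limma adjusted p = 0.409). Of 6 markers of the liver, an organ rich in Rnase4 and Ang, 2 lay above background, Alb was at 5.53, and the mean of all 6 was 6.09 to 6.29 in VAChT KD and 6.29 to 6.41 in WT. The part of these cell types in the values of the members was not tested.

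The other genes of the RNase A family were near background in these hearts. Of 24 symbols listed, 14 had a probe set of their own, and Rnase6, which encodes an antimicrobial ribonuclease of macrophages, was the only one of them with a mean above the olfactory receptors' 95th percentile. Rnase6 read 6.47, 6.86 and 6.46 on VAChT KD 1, 2 and 3, against 6.80, 6.64 and 6.69 on WT 1, 2 and 3. It was lowest on VAChT KD 1 and VAChT KD 3 and highest on VAChT KD 2, and the groups overlapped. Its log2 difference was -0.11 (standard error 0.13, limma adjusted p = 0.705), and -0.28 (standard error 0.12) without both arrays numbered 2.

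Across the 14, the log2 differences ran from -0.27 to 0.08 with a median of -0.18, and 11 lay below 0, whereas the median of all probe sets was -0.02 and that of the olfactory receptors was -0.11. The median of the family was -0.12 both after quantile normalizing once more and after centring the arrays on their medians. Without both arrays numbered 2 it was -0.26, where that of the olfactory receptors was -0.15. At an unadjusted p of 0.05, 1 of the 14 was lower and 0 were higher. That gene was Rnase12, of a branch of the family known from the male reproductive tract, at 5.03, 4.93 and 5.02 on VAChT KD 1, 2 and 3, against 5.40, 5.15 and 5.23 on WT 1, 2 and 3 (log2 difference -0.26, standard error 0.09, limma adjusted p = 0.409). Its signal lay below the olfactory receptors' 95th percentile on every array. The eosinophil-associated genes Rnase2a, Rnase2b, Ear6 and Ear14 averaged 4.27, 4.53, 5.76 and 4.32 over the 6 arrays, all below that percentile.

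Ribonucleases outside the family were well above background and differed little. Of 20 listed, 17 had a probe set of their own and 16 of them lay above the percentile. Their log2 differences ran from -0.11 to 0.18 with a median of 0.05, and 0 passed an unadjusted p of 0.05. The smallest p belonged to Xrn2, the nuclear exonuclease that ends transcription (log2 difference 0.16, standard error 0.08, limma adjusted p = 0.469), followed by Drosha, which cuts microRNA precursors (0.18, standard error 0.10), Rnaseh2c, a subunit of the enzyme that removes RNA from DNA hybrids (-0.11, standard error 0.07), and the exonuclease Dis3l (0.12, standard error 0.08). Rnaseh2b, another subunit of that enzyme and a gene of chromosome 14, read 8.27, 8.02 and 8.75 on VAChT KD 1, 2 and 3, against 8.11, 8.46 and 8.08 on WT 1, 2 and 3. Its 3 highest arrays were those at which Rnase1 was also highest. It was named after its values were seen. Its log2 difference was 0.13 (standard error 0.20), and 0.42 (standard error 0.18) without both arrays numbered 2.

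Of 7 genes around the action of angiogenin, 6 had a probe set of their own, and 0 of the 6 passed an unadjusted p of 0.05. Plxnb2, a receptor of angiogenin, had a log2 difference of 0.04 (standard error 0.11). The transfer RNA methyltransferases Trdmt1 and Nsun2, whose marks protect transfer RNA from cutting, differed by 0.14 (standard error 0.10) and 0.01 (standard error 0.08). Without both arrays numbered 2, Trdmt1 differed by 0.26 (standard error 0.12) and Nsun2 by 0.04 (standard error 0.13). The median of the 6 was 0.05, and it was 0.0008 after quantile normalizing once more.

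Rnase4, Ang and Rnase1 lie in the cluster of RNase A genes on chromosome 14, and Rnh1 lies on chromosome 7. The 10 genes with a probe set of their own on either side of Rnase4 were taken in the order of the RefSeq table of GRCm38.p6, which carries Rnase1 as the third gene on 1 side. Of these 20, 10 belong to the family, 8 lay above background, and 1, Rnase12, passed an unadjusted p of 0.05. Their median log2 difference was -0.11, and 15 lay below 0, where the olfactory receptors had the same median and 866 of 1035 below 0. After centring the arrays the median of the 20 was -0.05 with 13 below 0, and that of the olfactory receptors was -0.05. Without both arrays numbered 2 the median of the 20 was -0.16. Of those above background, 3 genes at the far end of the stretch had a higher mean in VAChT KD, as Rnase1 had. The purine nucleoside phosphorylase gene Pnp differed by 0.54 (standard error 0.28, limma adjusted p = 0.473), Klhl33, a Kelch-like protein, by 0.30 (standard error 0.18) and Osgep, of transfer RNA modification, by 0.18 (standard error 0.12). Without both arrays numbered 2 these differences were 1.00, 0.59 and 0.37. Pnp stood at 0.82 without WT 2 and at 0.26 without WT 3. Klhl33 stood at 0.46 without VAChT KD 2, at 0.18 without VAChT KD 1 and at 0.17 without WT 3. Osgep stood at 0.27 without either array numbered 2, at 0.12 without WT 3 and at 0.09 without VAChT KD 3.

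Pnp read 8.81, 8.24 and 8.77 on VAChT KD 1, 2 and 3, against 8.07, 8.63 and 7.51 on WT 1, 2 and 3. Its highest arrays were VAChT KD 1, VAChT KD 3 and WT 2, as for Rnase1. Pnp2, which the paper also lists as raised, is not among the neighbours taken. Of those taken, Rnase10, Rnase9, Rnase11, Rnase12 and the olfactory receptor gene Olfr750 lay between Pnp and Rnase4. Their log2 differences were -0.21, -0.07, -0.21, -0.26 and -0.13. The RNase genes among them were below background, at means of 4.68, 4.22, 5.93 and 5.13, and Olfr750 was just above it, at 6.66. The olfactory receptors had a median log2 difference of -0.11. Apex1, of DNA base excision repair, and Pip4p1, a lipid phosphatase, which lie close to Osgep, differed by -0.02 (standard error 0.10) and -0.08 (standard error 0.09). The differences in this stretch therefore did not share 1 sign. Those below 0 named here were of genes below or just above background, or lay within 1 standard error of 0.

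**Figure D3:**
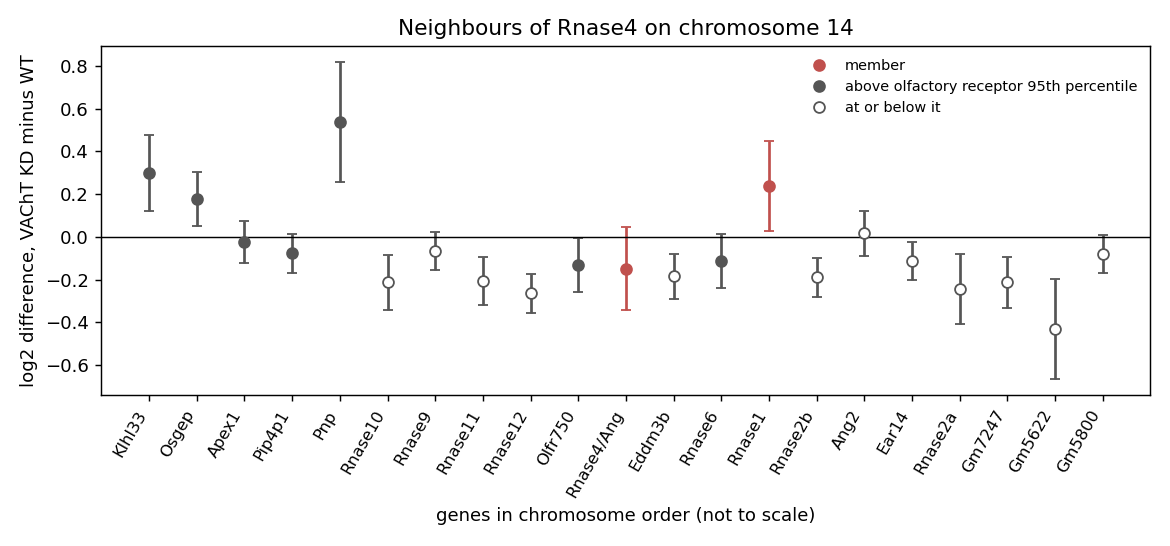
Log2 difference, VAChT KD minus WT, with limma's standard error (vertical axis) for 20 neighbours of Rnase4 in chromosome order (horizontal axis, not to scale), members in red, open symbols for genes at or below the olfactory receptors' 95th percentile. Pnp at 0.54 and Rnase1 at 0.24 lie above 0, and Rnase4/Ang at -0.15 lies below it, as do most of the family.

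Of 14475 single-gene probe sets above background, those whose values were most like Rnase1 were sought by the root mean square difference of mean-centred log2 values over the 6 arrays. They were Klhl33 (0.07), Mrpl20, of the mitochondrial ribosome (0.10), Mir208a, the microRNA gene within the cardiac myosin gene Myh6 (0.13), the histone gene H3c4 (0.14) and Dkc1, which modifies ribosomal RNA (0.14). Klhl33 read 8.18, 7.63 and 8.03 on VAChT KD 1, 2 and 3, against 7.65, 7.91 and 7.39 on WT 1, 2 and 3, and like Rnase1 was highest on VAChT KD 1 and lowest on WT 3.

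Most like Rnase4/Ang were Abhd4, a lipase of phospholipids (0.08), Angptl4, a secreted inhibitor of lipoprotein lipase (0.08), Sncg, gamma-synuclein (0.10), Gpha2, a glycoprotein hormone subunit (0.11), and Slc26a10, of an anion transporter family (0.11). Abhd4 read 8.99, 9.46 and 9.12 on VAChT KD 1, 2 and 3, against 9.42, 9.10 and 9.40 on WT 1, 2 and 3, and was highest on VAChT KD 2 and lowest on VAChT KD 1, as was Rnase4/Ang. Its log2 difference was -0.12 (standard error 0.15), and -0.36 (standard error 0.12) without both arrays numbered 2. Klhl33 and Mir208a among the first 5 and Abhd4 and Sncg among the second 5 lie on chromosome 14, which is 40% of each, where 3.44% of the probe sets searched have that chromosome. All of these are values of the same 6 arrays. The range of Rnh1 over the arrays, 0.26, was below the 0.5 set for this search.

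**Figure D4:**
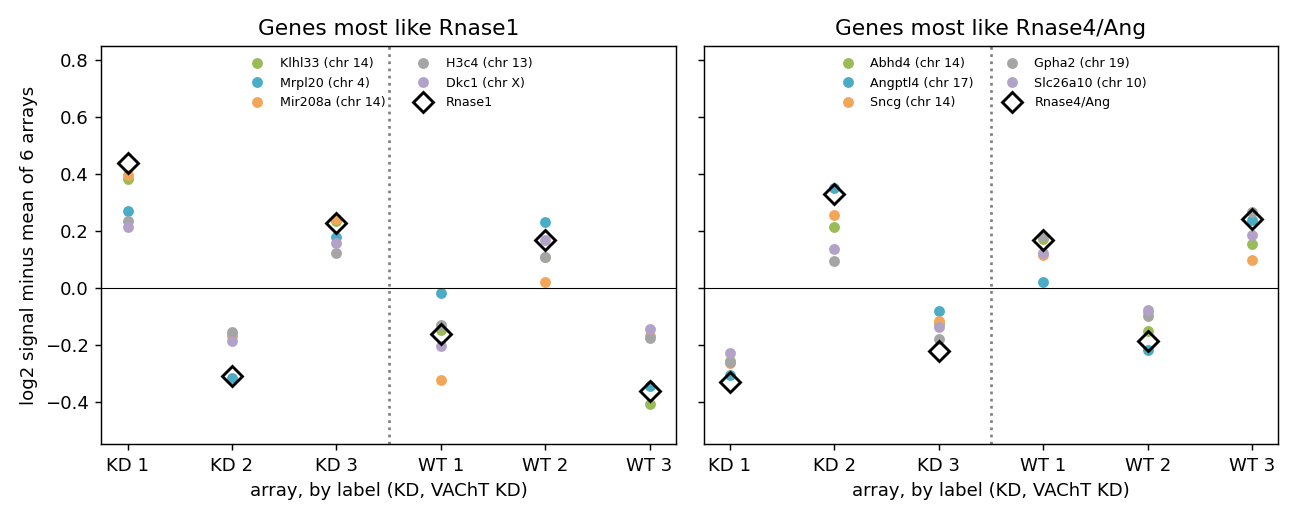
Log2 signal minus the mean of the 6 arrays (vertical axis) for Rnase1 (left, diamonds) and Rnase4/Ang (right, diamonds) and the 5 genes most like each (dots, with chromosome), by array (horizontal axis, VAChT KD left of the dotted line). Klhl33 lies closest to Rnase1 and Abhd4 closest to Rnase4/Ang. The panels are near mirror images at the diamonds, which are genes that the study picked as raised and lowered on these arrays.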

How the data were processed

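Heart RNA of 6 pools was measured on Mouse Gene 1.0 ST arrays and grouped by the genotype in the labels. Probes were summarised to 1 value per gene by the authors with RMA in Partek, and the deposited values, log2 signals of 35556 probe sets, are background corrected and normalized between arrays. The build of the genome is not given in the sources used here. No filter was applied. VAChT KD was compared with WT by limma 3.58.1 (lmFit, then eBayes) under R 4.3.3 at all probe sets together, and p-values were adjusted over them by Benjamini-Hochberg. The number of arrays limits the precision. In 20 simulated data sets with 200 changed of 35556 probe sets, limma found 82.7% of changes of 0.5 (log2) at an unadjusted p of 0.05 and 1.3-fold, and 21.3% at an adjusted p of 0.05. These shares are for probe sets drawn at random, with noise independent between arrays. The median standard error of all probe sets was 0.10, against 0.21 for Rnase1 and 0.19 for Rnase4/Ang, so the shares do not hold for these members.

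Names came from the platform annotation (21789 probe sets with 1 symbol, 1621 with several, 12146 unlisted). Genes of lists and neighbours were read at the single-symbol probe set with the highest mean. Named were all member probe sets, list genes past an unadjusted p of 0.05 or, failing any, up to 4 of smallest p, the 10 neighbours on each side of Rnase4, the 5 genes most like each member with a range of at least 0.5, Slc18a3 and Ogdhl. Other named genes were examples chosen after their values were seen. The members and lists were chosen with earlier results of these data known. Alternatives were other scalings, a filter on dim probe sets, other variance models, the methods' ANOVA, array weights, a replicate block, leaving out each array or both arrays numbered 2, and another fold threshold.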

Additional observations from a re-analysis of the deposited data

How the results depend on the processing

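The log2 differences of Rnase1, Rnase4/Ang and Rnh1 kept their sign and stayed short of an adjusted p of 0.05 under every alternative run. With 1 array left out they ran from 0.08 to 0.45, from -0.35 to -0.02 and from 0.01 to 0.14, and under the other alternatives from 0.14 to 0.59, from -0.48 to -0.04 and from 0.0013 to 0.13. That of Slc18a3 ran from -0.27 to 0.13 with 1 array left out, was 0.13 without VAChT KD 2, and was 0.20 without both arrays numbered 2. The 1 probe set past the adjusted p became 0 with the filter on dim probe sets, the methods' ANOVA, the replicate block, any 1 array left out or both arrays numbered 2 left out, and 3 with array weights. The count of 1348 at an unadjusted p of 0.05 and 1.3-fold was 581 with that filter, 587 with the ANOVA, 464 at 1.5-fold, 841 without WT 1, 2173 without WT 2, 2100 without WT 3 and 2800 without both arrays numbered 2. Deviations of same-numbered arrays correlated at 0.057, -0.125 and 0.133, and those of arrays with unlike numbers at -0.205 to 0.175. The deviations are from means of only 3 arrays, and the arrays numbered 2 went against their labels at some genes. These values therefore cannot show whether the numbers pair the arrays. With the replicate block the count was 1489 and no member changed its call. The cause of these shifts was not tested. Of the other values named, 528 stayed within 1 SD between replicates and 18 did not.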
